A study of Homo sapiens with 21 samples.

Results

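The genes described here are 47 genes of mitosis: the kinases and cyclins that drive entry into mitosis, the kinesins and other spindle proteins that move chromosomes, the factors that release anaphase, the cytokinesis proteins that part the daughter cells, the transcription factors FOXM1 and MYBL2, and the proliferation marker MKI67. They were taken by gene name from the count table, where all 47 were found among 61544 genes, on 18 chromosomes. RNA was sequenced in 21 libraries of BJ cells, an established line of normal human skin fibroblasts with a limited replicative lifespan. The libraries form 7 groups of 3. Of these groups, 5 were untreated cells of increasing passage, named P3, P11, P24, P30 and P33 after their passage number. The other 2 were cells of passage P11 that received DOX (doxorubicin, a drug that traps topoisomerase II and breaks DNA) at 50 ng/ml or, as its control, the solvent DMSO. All groups came from the same line. The labels state neither the duration of the treatment nor whether replicates were separate cultures, and p-values measure only how far these samples spread, which can be technical. The title of the series names replicative and doxorubicin-induced senescence as the states to be compared.

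Mitosis is driven by CDK1 bound to cyclin A or cyclin B, with Polo and Aurora kinases acting on centrosomes, spindle and chromosomes, until the anaphase-promoting complex and its activator CDC20 destroy cyclin B and securin. Most of these genes are transcribed late in the cell cycle, in G2 and mitosis, through MuvB complexes: MuvB with MYBL2 and FOXM1 activates them in cycling cells, and MuvB within the DREAM complex represses them in arrested cells. MuvB reaches them through a promoter element called CHR, often with CCAAT boxes bound by NF-Y close by. Cells that are resting or senescent therefore hold little of these mRNAs, and in bulk RNA fewer cycling cells and less RNA per cell cannot be told apart.

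RefSeq promoter sequences (GRCh38.p14, 250 bases before to 50 after a gene's start) were at hand for 39 of the 47 genes. The 120 bases just before the start are printed for 8 genes, to show what those elements look like in the genes that moved most and least: among genes whose 120 bases lie wholly before the deposited gene span, the 4 with the largest difference between DOX and DMSO and the 4 with the smallest. Capitals mark matches on either strand to CHR (TTTGAA or TTCGAA), to CCAAT, or to an E2F motif (TTTGGCG, with its variants TTTCCCG and also TTTGCCG and lastly TTTCGCG). A CHR on the other strand reads TTCAAA or TTCGAA and a CCAAT box reads ATTGG, and in MKI67 a CHR and a CCAAT box share letters.
MKI67 (chr10:128126424-128126543, minus strand): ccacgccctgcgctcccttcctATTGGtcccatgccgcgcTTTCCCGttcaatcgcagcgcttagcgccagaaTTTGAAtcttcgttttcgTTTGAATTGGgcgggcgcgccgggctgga
CDC20 (chr1:43358861-43358980, plus strand): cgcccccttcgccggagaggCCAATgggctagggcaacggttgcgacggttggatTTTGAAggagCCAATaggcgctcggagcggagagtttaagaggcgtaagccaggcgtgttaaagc
GTSE1 (chr22:46296750-46296869, plus strand): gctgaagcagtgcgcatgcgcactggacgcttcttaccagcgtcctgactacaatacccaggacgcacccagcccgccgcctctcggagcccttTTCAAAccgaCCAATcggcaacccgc
KIF18B (chr17:44947774-44947893, minus strand): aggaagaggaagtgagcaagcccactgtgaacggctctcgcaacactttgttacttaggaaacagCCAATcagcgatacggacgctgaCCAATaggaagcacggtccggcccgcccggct
CDC25C (chr5:138338356-138338475, minus strand): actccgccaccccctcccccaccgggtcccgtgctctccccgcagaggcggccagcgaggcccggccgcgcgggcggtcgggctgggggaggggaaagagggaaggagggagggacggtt
ESPL1 (chr12:53268179-53268298, plus strand): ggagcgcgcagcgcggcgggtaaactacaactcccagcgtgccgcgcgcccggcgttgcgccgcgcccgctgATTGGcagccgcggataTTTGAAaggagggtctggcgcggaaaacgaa
KIF20B (chr10:89701470-89701589, plus strand): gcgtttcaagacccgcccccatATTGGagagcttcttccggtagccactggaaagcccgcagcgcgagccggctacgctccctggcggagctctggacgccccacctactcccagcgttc
KIF18A (chr11:28108157-28108276, minus strand): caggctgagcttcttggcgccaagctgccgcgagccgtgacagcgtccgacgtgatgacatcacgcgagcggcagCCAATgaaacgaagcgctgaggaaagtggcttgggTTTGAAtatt

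MKI67 carried 2 CHR matches, a CCAAT box on each side and an E2F match, and CDC20 carried a CHR between 2 CCAAT boxes. GTSE1 had its CHR on the other strand, 26 bases before the start, with a CCAAT box next to it. KIF18B showed 2 CCAAT boxes before the start, and its CHR match began 2 bases after the start, outside the printed stretch. Among the printed genes that differed less with DOX, ESPL1 (-1.50) and KIF18A (-0.81) each had a CHR and a CCAAT box. KIF20B (-1.21) had CCAAT boxes before the start and 2 CHR matches after it. CDC25C (-1.78) had none of the 3 motifs in the 300 bases at its most upstream RefSeq start. CDC25B and CKAP2 differed still less, at -0.48 and -0.49, and had none of the 3 motifs. They are not printed because their RefSeq starts lie inside the deposited gene.

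CHR matches were found in 28 of the 39 promoters (71.8%), against 4554 of 27305 promoters in the RefSeq table, 1 per gene (16.7%). A CCAAT box was found in 31 of the 39 (79.5%), against 35.7% of all promoters, and both elements stood together in 25 (64.1%), against 6.63%. E2F matches, the mark of genes transcribed earlier, at the entry into S phase, were found in 5 (12.8%), against 8.7% of all. In 26 of the 39 (66.7%) a CHR began between 100 bases before and 50 after the start, against 7.46% of all promoters. None of the 3 motifs was found in 5 members, KIF2C, CDC25B, CDC25C, CKAP2 and MYBL2, against 49.4% of all promoters. The RefSeq start lay within 50 bases of the deposited gene's start for 26 of the 39 genes and more than 50 bases inside the deposited gene for the other 13, CDC25B, CKAP2 and MYBL2 among them, so that another promoter of those genes may lie outside the window. Only the most upstream RefSeq start of each gene was searched. Motifs at another start of any of the 39 genes, CDC25C included, could be missed. A match is a description of letters and not a binding site. With DOX, the median log2 fold change was -2.64 over the 26 measured genes with a CHR match (-4.10 to -0.53) and -1.84 over the 11 without one (-3.82 to -0.48), ranges that overlapped nearly throughout. At P30 against P3 the medians were -1.74 and -1.71.

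**Figure D1:**
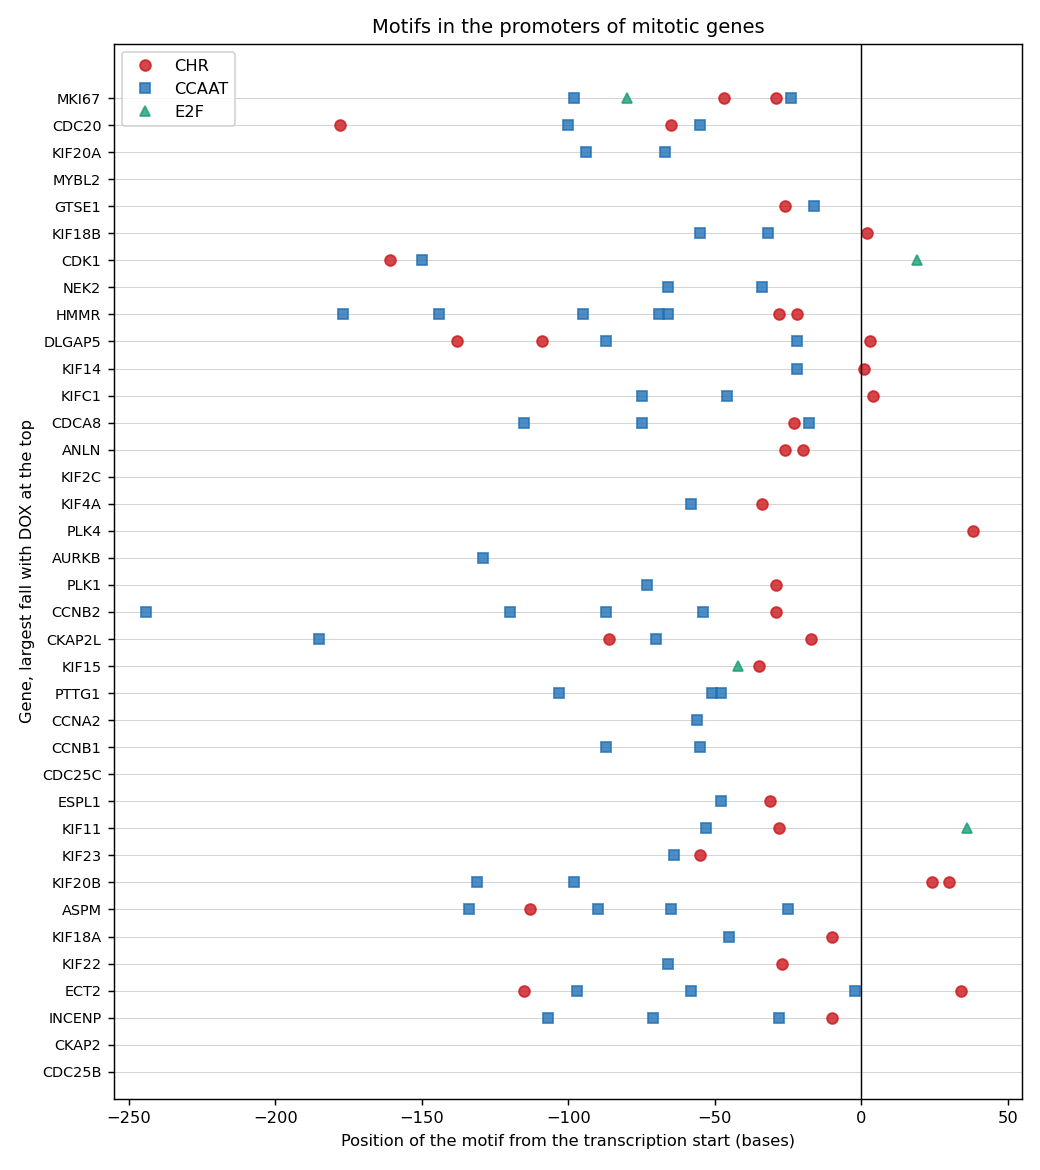
Position of CHR, CCAAT and E2F matches in the RefSeq promoters of measured mitotic genes, from 250 bases before to 50 after the transcription start (x axis, bases, first base of the match in the direction of transcription), with genes ordered down the page from the largest fall with DOX. Most CHR and CCAAT matches lie within 150 bases of the start, and 26 of these genes have a CHR match against 11 without.

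Each library held 12.946 to 27.194 M counts. The 47 genes took 0.328 to 0.344% of them in P3 libraries, 0.203 to 0.237% in P11, 0.203 to 0.211% in P24, 0.106 to 0.107% in P30 and 0.159 to 0.170% in P33 libraries. In the drug part the share was 0.0358 to 0.0384% with DOX, against 0.107 to 0.111% with DMSO. Of the 47, 2 could not be measured. NUSAP1, a spindle microtubule bundler, and PRC1, the bundler of the central spindle, share 99.9% and 99.5% of their span with another gene on the same strand, and they had 4 and 1 reads in all 15 passage libraries together. PRC1 passed the count filter only through the drug part, where it had 11, 14 and 2 reads with DOX and 22, 24 and 11 reads with DMSO. Both are left out below, and results are over the other 45. Passage and drug libraries were counted differently: among 9429 genes that another gene of their strand encloses, 0 had reads in any passage library, while 3950 had reads in a DOX or DMSO library. Levels are therefore compared within the passages or within the drug part, and not across. KIF4A, KIF15, KIF18B, PLK4, NEK2, CCNB2 and ASPM also overlap a same-strand gene in part, and their levels are uncertain to that extent. Of the 47, 21 overlap a gene on the opposite strand, and whether counting used strand is not stated by the sources here. Fibroblast markers were present in all groups (11 of 11, summing to 18800 to 53200 CPM). Keratinocyte, endothelial and leukocyte markers summed to 12.7 to 30, 2.65 to 6.73 and 0.539 to 2.56 CPM, with KRT5 at 0 in every group. Melanocyte markers summed to 26.5 to 83.3 CPM, with TYR, the enzyme that defines the type, at 0 in every group but DOX. At P3 the melanocyte sum was almost wholly MITF (mean 30.3 CPM) and the keratinocyte sum almost wholly KRT10 (mean 14.3 CPM). The fibroblast sum was 51100 to 53200 CPM with DOX and 49800 to 51100 CPM with DMSO. Of the 11 markers, 7 were lower (20.6% of all genes tested) and 3 higher (16.7% of all). The melanocyte sum was 56.2 to 57.8 with DOX and 80.8 to 83.3 with DMSO, and both tested markers were lower (20.6% of all genes tested). The keratinocyte sum was 16.0 to 17.3 with DOX and 12.7 to 13.8 with DMSO, and the leukocyte sum was 2.14 to 2.56 with DOX and 0.645 to 1.03 with DMSO. Over the passages the fibroblast sum was 27900 to 28800 at P3, 30700 to 31800 at P30 and 18800 to 21300 at P33, and the melanocyte sum was 30.2 to 32.6, 71.8 to 75.7 and 40.2 to 41.2. The part of these markers in the results was not tested.

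Values are CPM (counts scaled to TMM-adjusted library size), given for replicates 1, 2 and 3 in turn. Changes are log2 fold changes from edgeR's quasi-likelihood test with their standard error (SE), called at a Benjamini-Hochberg adjusted p under 0.05 over 16821 genes. Summed over the 45 genes, the level was 3443 ± 101 CPM at P3, 2123 ± 175 at P11, 1989 ± 21.9 at P24, 1062 ± 12 at P30 and 1478 ± 53.8 at P33 (SD, n = 3 each). The mitotic genes thus fell to P30 and stood higher again at P33. For 44 of the 45 the lowest mean was at P30, with KIF18A lowest at P24, and for 43 the highest was at P3, with KIF18B and CDC25B highest at P11.

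At P11 against P3, 41 of the 45 genes were lower and 1 was higher, where 23.6% of all genes tested were lower and 22.9% higher. The median was -0.67, and a gene's P11 mean was 62.8% of its P3 mean at the median, between 41.8% for CDC20 and 131.0% for CDC25B. The 3 largest differences were in KIF20A, CDC20 and CCNB1, at -1.25 ± 0.07, -1.25 ± 0.10 and -1.09 ± 0.06 (SE). CDC25B, a phosphatase that switches CDK1 on at mitotic entry, went the other way, at 0.39 ± 0.06 (SE, adjusted p = 1.97e-06). KIF18B, AURKB and CCNA2 did not pass, at 0.11 ± 0.10, -0.18 ± 0.10 and -0.09 ± 0.08 (SE), and their P11 and P3 libraries overlapped. At P24 against P3, 43 were lower (27.8% of all genes tested were lower) and CDC25B and CCNA2 did not pass, at -0.05 ± 0.06 and -0.08 ± 0.08 (SE). NEK2, CDC20 and CCNB1 differed most there, at -1.19, -1.15 and -1.09, and MYBL2 differed least among those called, at -0.27 ± 0.08 (SE).

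Between P11 and P24 the group split. At P24 against P11, 22 of the 45 were lower (17.7% of all genes tested), 2 were higher (16.0% of all genes tested) and 21 did not pass, with a median of -0.16. The 3 largest falls were in KIF18A, KIF15 and AURKB, at -0.72 ± 0.09, -0.60 ± 0.09 and -0.58 ± 0.11 (SE). AURKA and MYBL2 were higher, at 0.42 ± 0.08 (SE, adjusted p = 4.48e-05) and 0.30 ± 0.08 (SE, adjusted p = 0.00452). CCNB2, CKAP2 and CCNA2 were closest to no difference, with log2 fold changes that round to 0.00. P24 libraries lay wholly above P11 libraries in AURKA, MYBL2 and KIF20A. Over the 46 genes tested with PRC1, 15 were called without replicate 1 of P11 in place of 24, of which 13 were lower. Without replicate 2 of P11, 13 were lower and 4 higher, and the median moved to -0.095. Without replicate 3 of P11, 25 were lower and 2 higher, and the median moved to -0.226. Replicate 3 had the lowest sum of the P11 libraries over the 45 genes, 1921 CPM against 2230 and 2219. Among the 36 tested at a mean of at least 10 CPM, 14 were called.

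By the median, the step to P30 was the largest between neighbouring passages. At P30 against P24, 44 of the 45 were lower, against 17.1% of all genes tested, with a median of -0.99. Of the 45, 20 were called and at least 2-fold lower, against 733 of the 16821 genes tested. KIFC1, PTTG1 and KIF20A fell most, at -1.34 ± 0.14, -1.33 ± 0.12 and -1.28 ± 0.08 (SE). INCENP and CDC25B fell least among those called, at -0.30 and -0.32, and KIF18A did not pass, at 0.15 ± 0.10 (SE). The P30 libraries lay below all P24 libraries for 44 genes, where 22.6% of all genes tested did so. Set against P3, all 45 were lower at P30 (29.6% of all genes tested were lower), with a median of -1.71. At least 2-fold lower were 41, against 1080 of the 16821 genes tested. A gene's P30 mean was 30.6% of its P3 mean at the median, from 18.6% for CDC20 to 77.4% for CDC25B. After CDC20 the largest falls were in KIF20A and NEK2, at -2.37 ± 0.08 and -2.35 ± 0.10 (SE).

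At P33 the mitotic genes stood above P30. Of the 45, 40 were higher (23.6% of all genes tested) and 0 lower (24.8% of all) at P33 against P30, all 45 fold changes were positive and the median was 0.53. HMMR, CKAP2L and TROAP were at least 2-fold higher, a share not counted over all genes. KIFC1, KIF18A, INCENP, KIF22 and MYBL2 did not pass, at 0.33 ± 0.15, 0.16 ± 0.09, 0.17 ± 0.08, 0.25 ± 0.11 and 0.19 ± 0.09 (SE). On total counts these 5 were called too, at 0.49, 0.33, 0.34, 0.41 and 0.35, and other alternatives also called some of them. P33 libraries lay above all P30 libraries for 41 genes (27.6% of all genes tested) and overlapped for KIF18A, KIF22, KIFC1 and CDC25C. P33 still lay below P3: all 45 were lower (33.3% of all genes tested), with a median of -1.13. At least 2-fold lower were 30 of them, against 1083 of the 16821 genes tested. The P33 and P3 libraries overlapped for none of the 45 (34.9% of all genes tested lay wholly below). KIF20A, CDC20 and MKI67 were furthest below P3, at -2.01 ± 0.08, -1.90 ± 0.10 and -1.73 ± 0.08, and CDC25B, CKAP2L and ECT2 were nearest to it, at -0.21 ± 0.06, -0.23 ± 0.08 and -0.59 ± 0.06 (SE). The share of the gap between the P3 and P30 means that was made up at P33 was 19.0% at the median, from 5.42% for ASPM to 76.9% for CKAP2L. The calls of ASPM, CCNA2, CDC25B and KIF23 at P33 against P30 were lost without single libraries of P30 or P33, where their values were 0.12 to 0.21, 0.19 to 0.22, 0.14 to 0.17 and 0.13 to 0.16. At P33 against P3 the call of CKAP2L was lost without replicate 2 of P33, at -0.11, and those of CDC25B and CKAP2L were lost on total counts, at -0.02 and -0.04. These comparisons with P3 share the P3 libraries, and those with P30 share the P30 libraries.

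**Figure D2:**
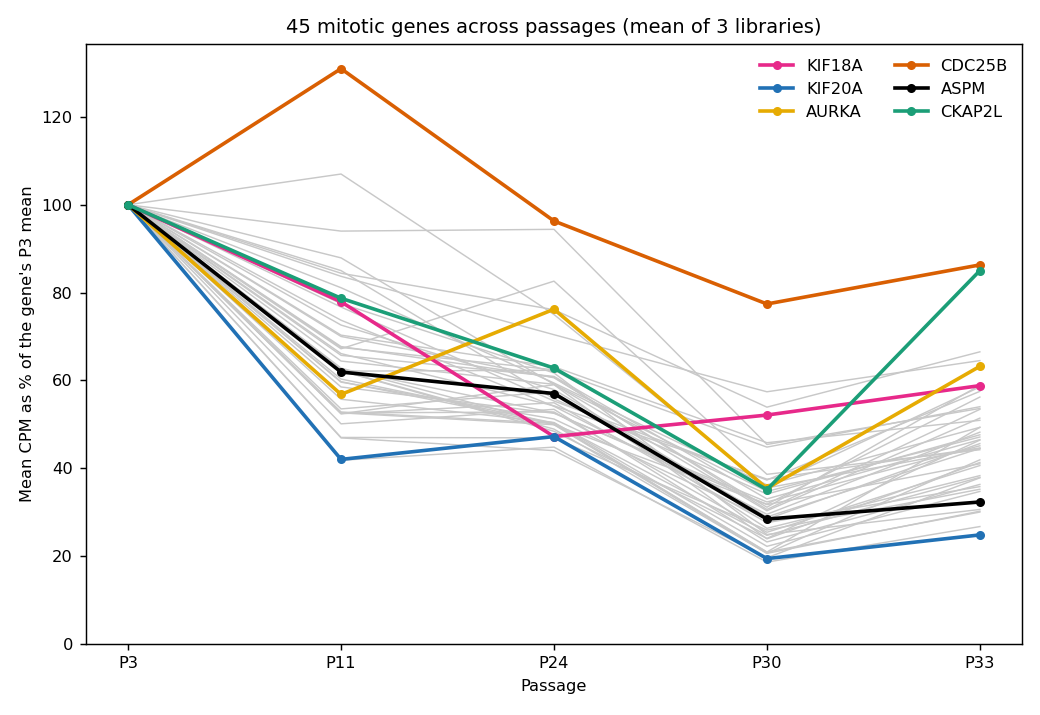
Mean level of each of 45 mitotic genes at the 5 passages (x axis, spaced evenly), as a percent of the gene's own P3 mean (y axis, CPM, means of 3 libraries). Most lines fall to P30 and turn up at P33. CDC25B (131.0% at P11), AURKA (higher at P24 than at P11), KIF18A (lowest at P24) and CKAP2L (85.0% at P33) leave the common course, while KIF20A and ASPM stay low at P33.

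CDK1 and its partners open mitosis. CDK1, the kinase itself, had 34.3, 37.5 and 38.2 CPM at P3, 22.98, 23.7 and 22.4 at P11, 20.4, 16.04 and 18.5 at P24, 11.3, 12.3 and 11.4 at P30 and 20.9, 18.4 and 22.5 at P33. Its P30 libraries lay lowest, and the P33 libraries overlapped those of P24 and P11. CDK1 was lower at P30 against P3, at -1.65 ± 0.09 (SE, adjusted p = 5.84e-17), and higher at P33 against P30, at 0.82 ± 0.09 (SE, adjusted p = 7.36e-09). CCNB1, cyclin B1, had 139, 136 and 143 CPM at P3, 68.6, 68.95 and 58.98 at P11, 64.5, 69.8 and 61.6 at P24, 36.1, 33.4 and 39.1 at P30 and 50.97, 48.3 and 48.2 at P33. CCNB1 was already far lower at P11, and its P11 and P24 libraries overlapped. P33 against P30 gave 0.45 ± 0.07 and P33 against P3 gave -1.50 ± 0.06 (SE). CCNA2, cyclin A2, which also serves S phase, had 93.3, 101 and 99.6 CPM at P3, 97.2, 95.5 and 83.2 at P11, 101, 85.6 and 90.4 at P24, 43.8, 48.1 and 41.2 at P30 and 55.6, 49.2 and 52.6 at P33. The P3, P11 and P24 libraries of CCNA2 overlapped, and the fall came at P30, where P30 against P24 gave -1.05 ± 0.08 (SE, adjusted p = 2.22e-12). CCNA2 gave 0.24 ± 0.08 (SE) at P33 against P30. CDC25B had 65.8, 60.6 and 66.6 CPM at P3, 87.2, 87.7 and 77.4 at P11, 63.04, 61.6 and 61.2 at P24, 50.9, 49.7 and 48.8 at P30 and 55.9, 57.05 and 53.5 at P33. Its P11 libraries lay above those of every other passage, and its difference at P30 against P3 was the smallest of the 45, -0.37 ± 0.06 (SE, adjusted p = 4.66e-06). CCNB2, cyclin B2, gave -1.98 ± 0.09 (SE) at P30 against P3, and CDC25C, another phosphatase of CDK1, gave -1.42 ± 0.18 (SE).

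All 6 mitotic kinases were lower at P30 against P3 and higher at P33 against P30. PLK1, which matures centrosomes and acts in cytokinesis, had 62.8, 58.2 and 65.1 CPM at P3, 31.6, 38.1 and 27.8 at P11, 33.7, 32.5 and 36.01 at P24, 17.3, 17.4 and 16.7 at P30 and 21.7, 23.02 and 21.9 at P33. P11 and P24 overlapped, and P33 stood above P30 but below P24, with 0.37 ± 0.09 (SE, adjusted p = 0.000712) for P33 against P30. AURKA, the spindle pole kinase, had 76.5, 76.1 and 80.99 CPM at P3, 45.4, 46.4 and 40.8 at P11, 57.2, 60.4 and 60.5 at P24, 27.2, 25.8 and 29.8 at P30 and 52.2, 44.01 and 51.4 at P33. AURKA was the kinase whose P24 libraries all lay above its P11 libraries, and at P33 it again stood above P11 in 2 of 3 libraries. P33 against P30 gave 0.84 ± 0.08 (SE, adjusted p = 2.52e-10). AURKB, the kinase of the chromosomal passenger complex, had 16.7, 15.5 and 15.8 CPM at P3, 13.3, 16.4 and 12.6 at P11, 9.16, 9.73 and 9.49 at P24, 4.86, 5.37 and 4.34 at P30 and 8.003, 6.92 and 9.74 at P33. Its P11 and P3 libraries overlapped, and P24 lay below both. NEK2, which parts the centrosomes, had 34.2, 32.2 and 32.9 CPM at P3, 16.8, 17.4 and 12.4 at P11, 14.8, 15.7 and 13.2 at P24, 6.96, 6.21 and 6.28 at P30 and 12.3, 12.2 and 12.97 at P33. Its P33 libraries lay above its P30 libraries, with 0.94 ± 0.12 (SE, adjusted p = 3.87e-08), and below all P24 libraries. PLK4, the kinase of centriole duplication, gave -1.46 ± 0.12 at P30 against P3 and 0.44 ± 0.13 (SE) at P33 against P30.

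All 12 kinesins measured were lower at P30 against P3, with a median of -1.62. KIF11, which pushes the spindle poles apart, had 68.7, 63.8 and 75.8 CPM at P3, 49.6, 50.1 and 40.8 at P11, 41.99, 40.8 and 47.1 at P24, 26.1, 23.8 and 24.1 at P30 and 31.9, 29.4 and 31.3 at P33. The P33 libraries lay above those of P30 with 0.32 ± 0.08 (SE). KIF20A, a cytokinesis kinesin of the central spindle, had 109, 104 and 113 CPM at P3, 45.8, 50.4 and 40.4 at P11, 50.8, 50.6 and 52.2 at P24, 20.8, 20.8 and 21.5 at P30 and 29.6, 22.9 and 28.1 at P33. It had the lowest share of its P3 level at P33 among the 45 (24.8%), with P33 against P3 at -2.01 ± 0.08 (SE, adjusted p = 9.25e-21). KIF23, the kinesin of the centralspindlin complex, had 114, 109.8 and 119.5 CPM at P3, 81.4, 87.8 and 72.2 at P11, 73.6, 72.9 and 70.5 at P24, 51.5, 50.8 and 54.9 at P30 and 58.04, 57.5 and 59.2 at P33. Its P33 gain over P30 was among the smallest called, 0.16 ± 0.06 (SE, adjusted p = 0.0442). KIF2C, which depolymerizes microtubules at kinetochores, had 68.4, 63.6 and 68.2 CPM at P3, 39.9, 45.2 and 35.7 at P11, 33.1, 34.3 and 33.4 at P24, 17.01, 17.1 and 15.3 at P30 and 25.99, 23.6 and 26.3 at P33. Each step of KIF2C separated the libraries: P11 below P3, P24 below P11, P30 below P24 and P33 above P30. KIF22, a chromosome arm kinesin, had 29.8, 32.9 and 29.7 CPM at P3, 21.4, 22.9 and 16.7 at P11, 17.3, 15.8 and 16.9 at P24, 12.9, 10.3 and 11.5 at P30 and 12.3, 14.3 and 14.6 at P33. Its P33 and P30 libraries overlapped. KIFC1, which clusters spindle poles, had 16.7, 16.9 and 16.4 CPM at P3, 12.8, 14.4 and 11.5 at P11, 10.7, 10.3 and 9.84 at P24, 3.98, 3.42 and 5.04 at P30 and 4.93, 5.55 and 4.82 at P33. KIFC1 at P33 lay below all its P24 libraries, and its P33 and P30 ranges overlapped as well. KIF18A and KIF18B, which limit microtubule length in the spindle, took different courses: KIF18A fell between P11 and P24 (-0.72 ± 0.09, SE) and did not pass at P30 against P24, while KIF18B did not pass at P11 against P3 and fell at P24 against P11 and at P30 against P24 (-0.52 ± 0.10 and -1.06 ± 0.12, SE). KIF14, KIF4A, KIF15 and KIF20B gave -1.69, -2.17, -1.55 and -1.81 at P30 against P3 and 0.93, 0.64, 0.47 and 0.68 at P33 against P30.

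The 4 genes of anaphase onset fell to a median of -2.07 at P30 against P3 and stood at -1.19 at P33 against P3. CDC20, the activator of the anaphase-promoting complex, had 37.5, 32.9 and 38.4 CPM at P3, 15.8, 17.1 and 12.6 at P11, 14.96, 17.1 and 16.7 at P24, 6.46, 7.37 and 6.36 at P30 and 9.44, 9.46 and 10.1 at P33. It showed the largest difference of the 45 at P30 against P3, -2.42 ± 0.12 (SE, adjusted p = 3.81e-18). UBE2C, the ubiquitin-conjugating enzyme of that complex, had 20.4, 20.96 and 23.1 CPM at P3, 13.9, 16.6 and 9.61 at P11, 10.01, 10.8 and 10.4 at P24, 5.47, 5.16 and 4.88 at P30 and 9.90, 8.80 and 11.2 at P33. The P33 libraries of UBE2C overlapped those of P24, and P33 against P30 gave 0.94 ± 0.15 (SE, adjusted p = 3.55e-06). PTTG1, the securin that holds back separase, had 24.4, 27.6 and 25.3 CPM at P3, 14.1, 14.6 and 11.9 at P11, 14.2, 15.5 and 15.9 at P24, 5.52, 5.58 and 7.36 at P30 and 11.2, 9.74 and 10.99 at P33. Its P30 libraries were the lowest, and P33 against P30 gave 0.81 ± 0.12 (SE). ESPL1, separase itself, had 13.8, 13.6 and 13.5 CPM at P3, 10.6, 11.2 and 8.34 at P11, 7.74, 6.68 and 7.71 at P24, 4.36, 3.52 and 4.18 at P30 and 5.94, 6.54 and 7.23 at P33. The P33 libraries of ESPL1 overlapped those of P24.

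The chromosomal passenger complex joins AURKB to INCENP, BIRC5 and CDCA8. BIRC5, survivin, had 40.7, 42.5 and 41.9 CPM at P3, 23.8, 24.6 and 18.5 at P11, 24.2, 22.98 and 24.6 at P24, 11.7, 10.47 and 10.7 at P30 and 15.7, 13.7 and 18.5 at P33. INCENP, the scaffold of the complex, had 98.1, 90.4 and 101 CPM at P3, 83.9, 83.5 and 75.2 at P11, 67.2, 72.6 and 64.1 at P24, 55.4, 51.8 and 59.2 at P30 and 61.8, 62.04 and 63.2 at P33. The value of INCENP was nearer 0 than those of its partners: P30 against P3 gave -0.80 ± 0.08 for INCENP, against -1.93 ± 0.11 for BIRC5 and -1.78 ± 0.10 for CDCA8 (SE), a difference between genes that was not itself tested. CDCA8, borealin, was higher at P33 against P30 by 0.61 ± 0.11 (SE).

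TPX2, which activates AURKA on the spindle, had 186, 175 and 193 CPM at P3, 124, 127 and 106 at P11, 108, 111 and 109 at P24, 62.5, 63.9 and 66.03 at P30 and 85.2, 86.4 and 89.6 at P33. All its P33 libraries lay above P30 and below P24. ASPM, a spindle pole protein, had 154, 160.0 and 164 CPM at P3, 106, 105 and 84.5 at P11, 93.1, 85.2 and 93.7 at P24, 43.6, 46.9 and 45.1 at P30 and 56.1, 48.3 and 49.8 at P33. ASPM had made up the smallest share of its gap between P30 and P3, 5.42%, and P33 against P30 gave 0.19 ± 0.08 (SE, adjusted p = 0.0499). HMMR, a spindle pole protein that binds TPX2, and CKAP2L, a spindle pole protein, had the largest log2 fold changes at P33 against P30, at 1.22 ± 0.12 (SE, adjusted p = 1.84e-10) and 1.27 ± 0.10 (SE, adjusted p = 6.93e-13). CKAP2L had 54.8, 57.2 and 58.7 CPM at P3, 46.9, 48.1 and 39.2 at P11, 34.8, 35.3 and 37.1 at P24, 22.3, 18.5 and 19.1 at P30 and 51.6, 40.8 and 52.6 at P33, so that its P33 libraries overlapped its P11 range. DLGAP5, GTSE1, FAM83D, TROAP and CKAP2 gave -2.28, -1.71, -1.64, -2.28 and -1.16 at P30 against P3, and all were higher at P33 against P30.

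Cytokinesis is carried here by ANLN, ECT2 and RACGAP1. ANLN, anillin, which scaffolds the contractile ring, had 466, 411 and 449 CPM at P3, 238, 222 and 205 at P11, 235, 238 and 236 at P24, 102, 102 and 104 at P30 and 166, 153 and 163 at P33. Its P11 and P24 libraries overlapped, and its P30 libraries were the lowest. P30 against P3 gave -2.11 ± 0.06 (SE, adjusted p = 1.94e-24) and P33 against P30 gave 0.64 ± 0.06 (SE, adjusted p = 3.06e-11). ECT2, the exchange factor that activates RhoA at the cleavage site, had 79.2, 83.5 and 83.1 CPM at P3, 69.4, 72.8 and 65.1 at P11, 63.6, 61.5 and 61.97 at P24, 43.5, 42.9 and 46.1 at P30 and 55.9, 51.1 and 56.5 at P33. ECT2 gave -0.89 ± 0.06 (SE, adjusted p = 2.58e-14) at P30 against P3, among the smallest of the 45. RACGAP1, the centralspindlin subunit that binds ECT2, had 55.8, 56.9 and 56.9 CPM at P3, 36.6, 37.2 and 32.4 at P11, 29.99, 29.9 and 29.3 at P24, 18.9, 18.6 and 16.3 at P30 and 23.6, 24.01 and 21.9 at P33. P33 against P30 gave 0.31 ± 0.06 for ECT2 and 0.36 ± 0.09 for RACGAP1 (SE).

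The 2 transcription factors of the group, FOXM1 and MYBL2, were lower at P30 against P3. FOXM1 had 64.8, 72.04 and 69.02 CPM at P3, 44.5, 48.8 and 42.1 at P11, 41.02, 39.3 and 45.1 at P24, 21.2, 22.5 and 24.3 at P30 and 33.95, 30.5 and 31.2 at P33. Its P33 libraries all lay above P30, with 0.50 ± 0.07 (SE, adjusted p = 1.17e-06). MYBL2, B-MYB, had 37.1, 37.2 and 36.7 CPM at P3, 24.8, 27.6 and 22.3 at P11, 28.9, 29.7 and 33.2 at P24, 13.8, 15.1 and 14.03 at P30 and 15.2, 16.3 and 17.6 at P33. MYBL2 was higher at P24 than at P11, and its P33 libraries lay just above those of P30 without passing the test. MKI67, the Ki-67 protein that coats mitotic chromosomes and marks cycling cells, had 544, 464 and 522 CPM at P3, 297, 258 and 252 at P11, 256, 247 and 266 at P24, 102, 109.5 and 108 at P30 and 158, 154 and 148 at P33. P30 against P3 gave -2.26 ± 0.08 (SE, adjusted p = 1.15e-21) and P33 against P30 gave 0.53 ± 0.08 (SE, adjusted p = 1.15e-06).

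**Figure D3:**
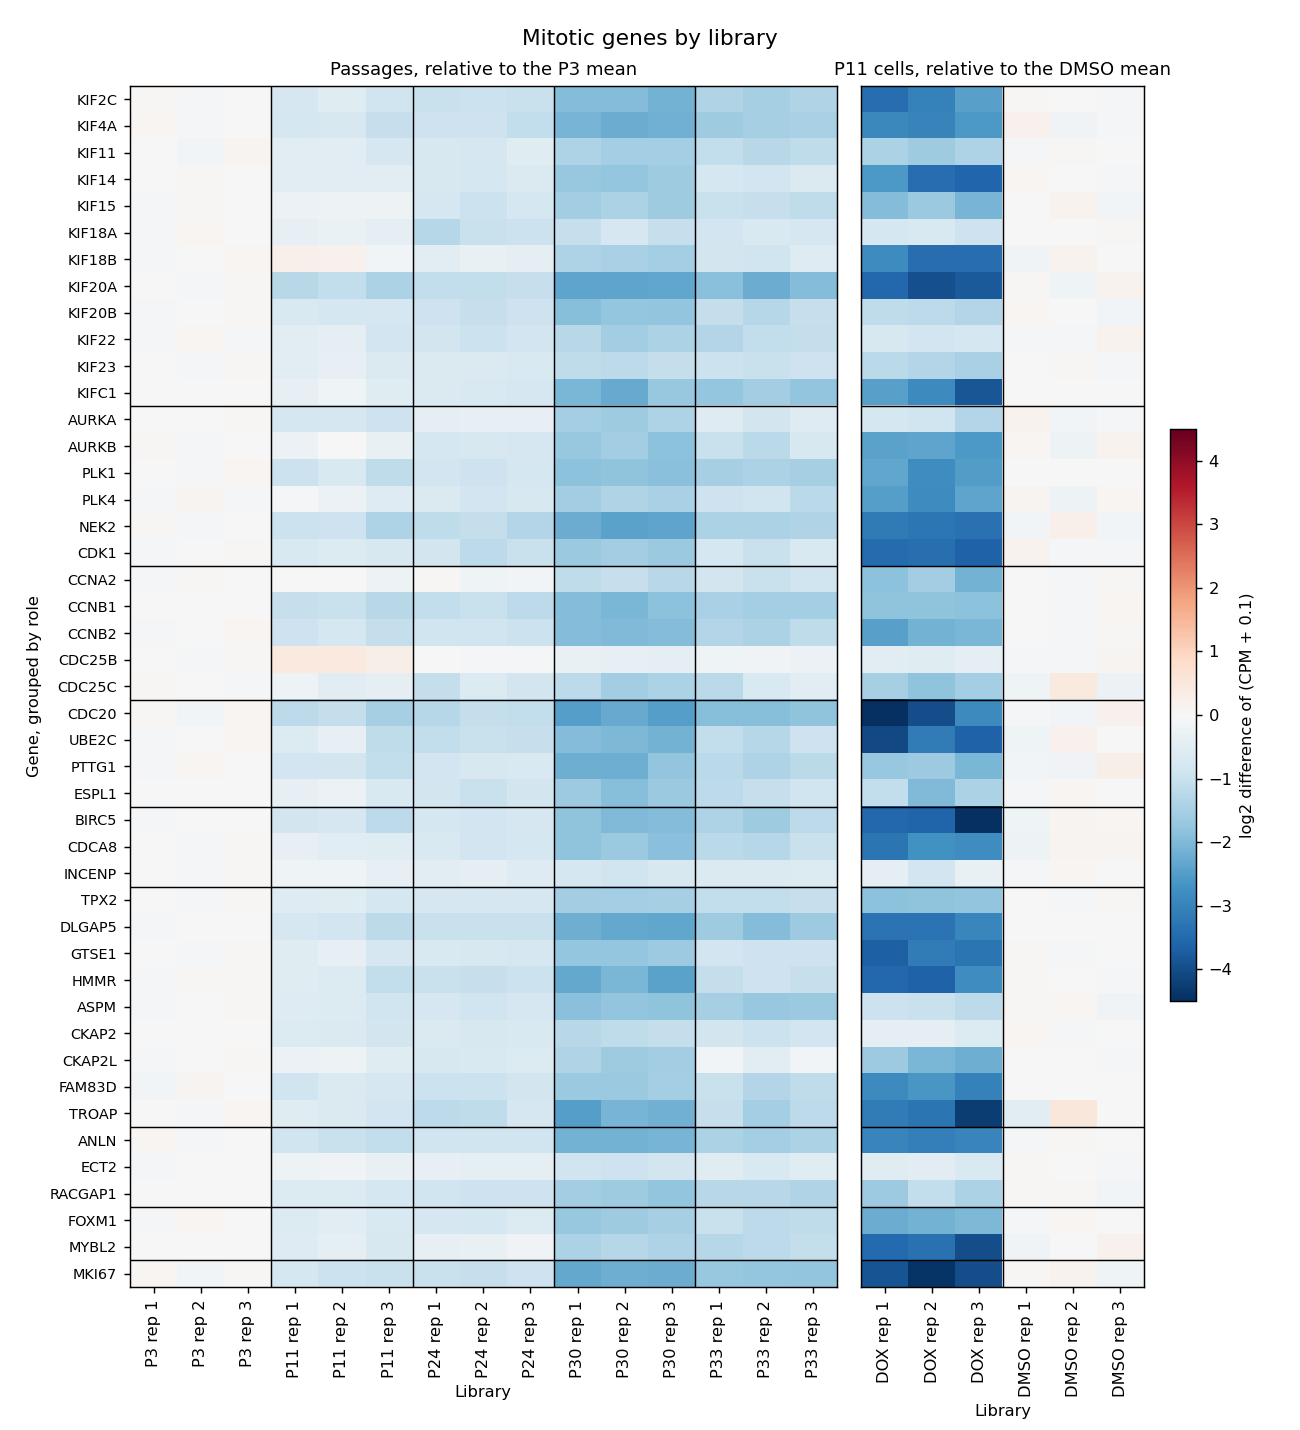
Heat map of 45 mitotic genes (down the page, grouped by role) in the 15 passage libraries, as the log2 difference from the gene's P3 mean, and in the DOX and DMSO libraries, as the log2 difference from its DMSO mean, after adding 0.1 CPM. The P30 columns are the bluest of the passages, the P33 columns are paler, and the DOX columns are dark for most genes, while CDC25B, CKAP2, INCENP and ECT2 stay pale.

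With DOX the whole group of mitotic genes fell. All 45 were lower with DOX than with DMSO, where 20.6% of all genes tested were lower, and the DOX libraries lay below all DMSO libraries for each of them (23.3% of all genes tested). The median log2 fold change was -2.61, and 38 of the 45 were at least 2-fold lower, against 594 of the 16821 genes tested. A gene's DOX mean was 16.2% of its DMSO mean at the median. Summed over the 45, the level was 407.4 ± 11.7 CPM with DOX and 1206 ± 16.2 CPM with DMSO (SD, n = 3 each). The range was wide, from TROAP, a spindle-associated protein that was at 3, 2 and 0 reads in the DOX libraries and 28, 44 and 31 in the DMSO libraries, to CDC25B, whose DOX mean was 71.5% of its DMSO mean. The fitted fold change of TROAP, -4.47 ± 0.48 (SE), rests on those few reads, and a count of 0 in DOX replicate 3 allows up to 0.153 CPM, counting error only.

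MKI67 had 9.96, 6.87 and 9.28 CPM with DOX, against 154, 166 and 132 CPM with DMSO, a difference of -4.10 ± 0.10 (SE, adjusted p = 2.11e-25). CDC20 had 0.121, 0.251 and 0.663 CPM with DOX, against 5.18, 4.97 and 6.28 CPM with DMSO. CDC20 was at 3, 5 and 13 reads in the DOX libraries, and the fit gave -4.04 ± 0.27 (SE, adjusted p = 2.96e-14). BIRC5 had 0.847, 0.803 and 0.306 CPM with DOX, against 9.37, 11.8 and 11.4 CPM with DMSO, which gave -4.0 ± 0.20 (SE, adjusted p = 5.05e-17). UBE2C had 0.161, 0.401 and 0.255 CPM with DOX, against 3.74, 4.91 and 4.28 CPM with DMSO. These 4 genes, with TROAP, were the 5 largest falls. The DOX levels of CDC20, UBE2C, BIRC5 and TROAP lay under 1 CPM in every library, while MKI67 still had 247, 137 and 182 reads with DOX.

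Among the kinases and cyclins the falls were uneven. CDK1 had 1.29, 1.35 and 1.12 CPM with DOX, against 16.8, 14.1 and 14.6 CPM with DMSO, at -3.59 ± 0.14 (SE, adjusted p = 6.17e-20). NEK2 had 0.645, 0.602 and 0.561 CPM with DOX, against 5.99, 7.82 and 6.10 CPM with DMSO, and AURKB had 0.524, 0.552 and 0.459 CPM with DOX, against 3.47, 2.73 and 3.58 CPM with DMSO. In NEK2 and AURKB no DOX library passed 1 CPM. PLK1 had 1.74, 1.25 and 1.53 CPM with DOX, against 9.42, 9.34 and 9.10 CPM with DMSO, at -2.61 ± 0.15 (SE, adjusted p = 1.16e-15). AURKA had 7.87, 7.38 and 5.40 CPM with DOX, against 15.3, 12.7 and 13.2 CPM with DMSO, at -0.99 ± 0.11 (SE, adjusted p = 6.99e-09). AURKA thus kept 50.2% of its DMSO mean, against 15.7% for AURKB and 16.2% for PLK1. CCNB1 had 10.04, 10.2 and 9.89 CPM with DOX, against 34.9, 34.1 and 38.1 CPM with DMSO. CCNA2 had 11.4, 14.1 and 9.48 CPM with DOX, against 42.2, 39.6 and 43.5 CPM with DMSO. The DOX mean was 28.1% of the DMSO mean for CCNB1 and 27.9% for CCNA2. CDC25B had 67.04, 62.8 and 69.2 CPM with DOX, against 89.96, 88.3 and 100 CPM with DMSO, the smallest difference of the 45, at -0.48 ± 0.06 (SE, adjusted p = 4.25e-08).

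All 12 kinesins were lower with DOX, with a median of -2.41. KIF20A had 1.61, 1.20 and 1.38 CPM with DOX, against 20.5, 17.6 and 22.01 CPM with DMSO, at -3.82 ± 0.14 (SE, adjusted p = 2.06e-20). KIF2C had 1.37, 1.86 and 2.80 CPM with DOX, against 16.3, 15.9 and 15.4 CPM with DMSO. KIFC1 had 0.847, 0.602 and 0.255 CPM with DOX, against 4.96, 5.03 and 5.05 CPM with DMSO. In these 3 the DOX libraries were at most 2.80 CPM. KIF11 had 9.16, 8.13 and 9.43 CPM with DOX, against 22.9, 25.8 and 25.2 CPM with DMSO, at -1.46 ± 0.10 (SE, adjusted p = 2.6e-14). KIF23 had 16.6, 15.2 and 13.9 CPM with DOX, against 38.7, 39.5 and 37.4 CPM with DMSO. KIF22 had 6.50, 5.82 and 6.07 CPM with DOX, against 10.2, 10.01 and 11.9 CPM with DMSO, at -0.80 ± 0.12 (SE, adjusted p = 1.85e-06). KIF22 and KIF18A kept the most among the kinesins, 57.2% and 56.9% of their DMSO means. KIF18B, KIF14 and KIF4A were lower, at -3.64 ± 0.29, -3.19 ± 0.15 and -2.90 ± 0.13 (SE), and KIF15 and KIF20B were lower at -1.92 ± 0.12 and -1.21 ± 0.07 (SE).

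In the anaphase group, PTTG1 had 2.14, 2.26 and 1.68 CPM with DOX, against 6.62, 6.55 and 8.80 CPM with DMSO. ESPL1 had 1.37, 0.703 and 1.07 CPM with DOX, against 2.84, 3.27 and 3.05 CPM with DMSO, at -1.50 ± 0.21 (SE, adjusted p = 4.07e-07). PTTG1 and ESPL1 kept 27.7% and 34.3% of their DMSO means, while CDC20 and UBE2C kept 6.29% and 6.32%. INCENP had 33.2, 24.6 and 35.7 CPM with DOX, against 43.8, 47.7 and 44.1 CPM with DMSO, at -0.53 ± 0.09 (SE, adjusted p = 5.95e-06). Within the passenger complex, the DOX mean was 6.0% of the DMSO mean for BIRC5, 12% for CDCA8 and 69.0% for INCENP, a spread between genes that was not itself tested. ANLN had 12.9, 12.1 and 13.2 CPM with DOX, against 100, 106 and 103 CPM with DMSO, at -3.01 ± 0.07 (SE, adjusted p = 4.98e-26). ECT2 had 40.5, 42.4 and 36.7 CPM with DOX, against 60.3, 59.9 and 55.5 CPM with DMSO, at -0.56 ± 0.06 (SE, adjusted p = 5.47e-09). RACGAP1 had 7.58, 10.9 and 8.61 CPM with DOX, against 24.5, 24.7 and 21.6 CPM with DMSO. Of the 3 cytokinesis genes, ANLN was reduced to 12.4% of its DMSO mean and ECT2 to 68.1%.

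TPX2 had 19.6, 19.9 and 20.4 CPM with DOX, against 70.3, 67.6 and 72.2 CPM with DMSO, at -1.81 ± 0.07 (SE, adjusted p = 1.29e-20). ASPM had 29.9, 29 and 25.8 CPM with DOX, against 60.3, 62.7 and 53.1 CPM with DMSO, at -1.05 ± 0.08 (SE, adjusted p = 1.17e-12). CKAP2, a microtubule-binding protein of the spindle poles, was close to CDC25B at the small end, with -0.49 ± 0.06 (SE, adjusted p = 1.21e-07). Among the transcription factors, FOXM1 had 3.31, 3.56 and 3.77 CPM with DOX, against 14.9, 16.8 and 15.6 CPM with DMSO, at -2.15 ± 0.11 (SE, adjusted p = 2.53e-17). MYBL2 had 0.887, 1.004 and 0.612 CPM with DOX, against 9.87, 11.04 and 12.6 CPM with DMSO, at -3.72 ± 0.16 (SE, adjusted p = 1.01e-18). MYBL2 was at 7.46% of its DMSO mean and FOXM1 at 22.5%.

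**Figure D4:**
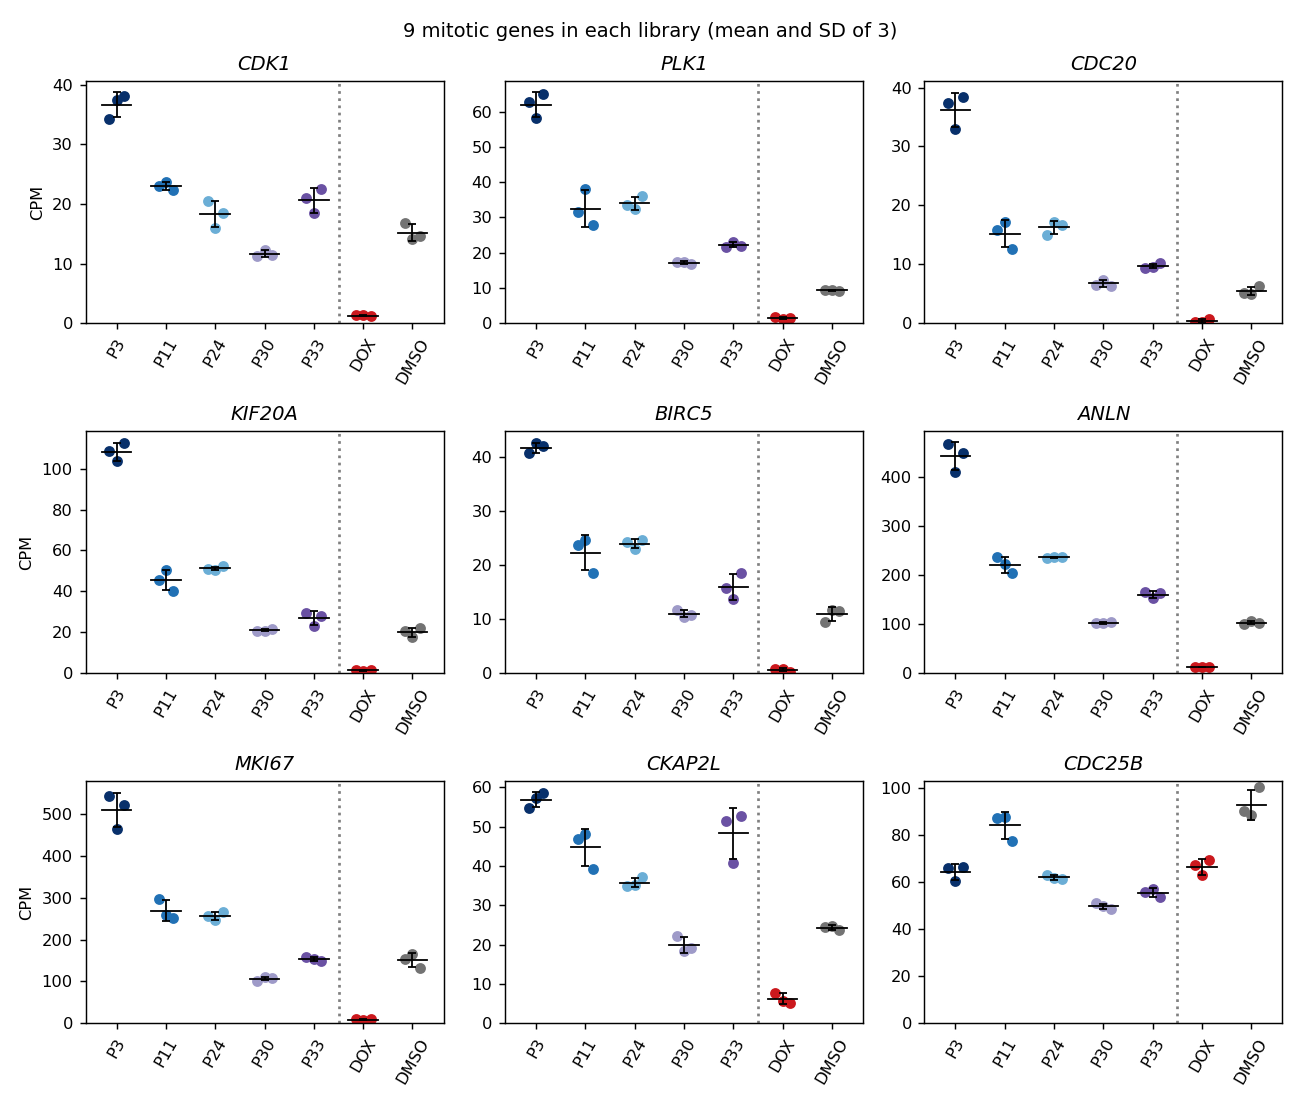
CPM of 9 mitotic genes in each library (points), with the mean and SD of 3 libraries (lines). Panels run from P3 to P33 and then, past a dotted line, DOX and DMSO; levels on the left and right of that line were counted differently and are not comparable. In all 9 genes P30 lies below P24, P33 above P30 and DOX below DMSO, with CDC25B showing the smallest differences.

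The effect of DOX was set against the effect of passage through the difference of both fold changes, so that no level crosses the parts. The DOX effect was below the P33 effect (P33 against P3) in 36 of the 45 genes at an adjusted p under 0.05, where 25.4% of all genes tested were, and above it in 3, where 25.8% of all were. The median difference of log2 fold changes was -1.37. TROAP, UBE2C and KIF18B differed most, by -3.23 ± 0.56, -2.88 ± 0.36 and -2.87 ± 0.32 (SE). In ASPM, CKAP2 and KIF22 the fall from P3 to P33 was larger than that with DOX, with differences of 0.58 ± 0.11 (SE, adjusted p = 3.85e-05), 0.39 ± 0.09 (SE, adjusted p = 0.00035) and 0.37 ± 0.15 (SE, adjusted p = 0.0408). The KIF22 call was lost in 10 alternatives, 6 of which left out 1 library, where its difference was 0.30 to 0.38. ASPM was at 48.1% of its control with DOX and at 32.3% of P3 at P33. ECT2, KIF20B, KIF18A, INCENP, RACGAP1 and ESPL1 did not pass, with differences of 0.03 ± 0.08, -0.08 ± 0.10, -0.05 ± 0.13, 0.10 ± 0.12, -0.11 ± 0.12 and -0.44 ± 0.24 (SE). Against the deeper fall at P30 (P30 against P3), the DOX effect was lower in 28 genes (22.2% of all genes tested), higher in 6 (22.2% of all) and not called in 11, with a median of -0.73. MYBL2, TROAP and KIF18B differed most there, by -2.35 ± 0.20, -2.20 ± 0.62 and -2.17 ± 0.34 (SE), and ASPM, CKAP2, KIF22, KIF20B, AURKA and ECT2 were the 6 higher ones, by 0.76, 0.67, 0.62, 0.60, 0.51 and 0.34. KIF11, CDC25B and KIF18A, the 3 with the smallest differences, did not pass, at 0.03 ± 0.13, -0.12 ± 0.09 and 0.12 ± 0.14 (SE). Both differences use the same DOX, DMSO and P3 libraries. The passage effects start at P3, while DOX was given to P11 cells, where a gene's untreated mean was 62.8% of P3 at the median. The DOX effect itself starts from DMSO, whose level cannot be set beside untreated P11, as the parts were counted differently. Means at P11 and P33 were 98.5 and 51.4 CPM in ASPM, 84.5 and 73.5 in CKAP2 and 20.35 and 13.7 in KIF22. Their DOX means were 48.1%, 71.1% and 57.2% of their DMSO means. A DOX effect beside a passage effect that starts at P11 was not tested.

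Genes that fell more with passage tended to fall more with DOX. Across the 45 genes, which are not independent of each other, the DOX log2 fold change had a Pearson r of 0.71 and a Spearman rho of 0.66 with that of P30 against P3, and 0.48 and 0.45 with that of P33 against P3, comparisons that share no library with the drug part. All used the same gene annotation and low-count genes have the widest errors.

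**Figure D5:**
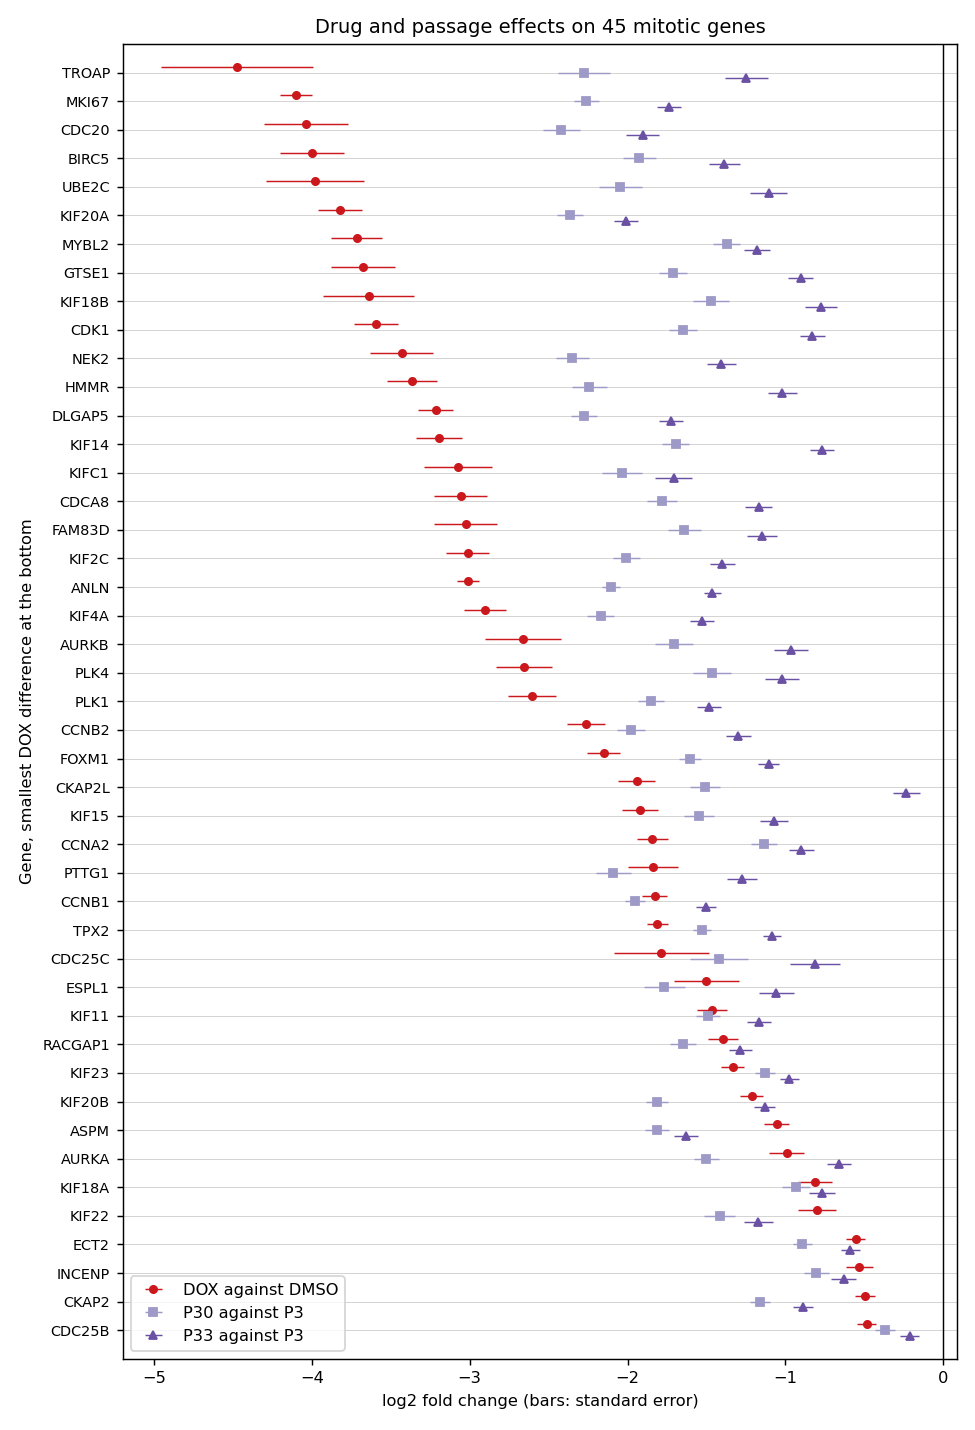
Log2 fold change with SE (x axis) of each of 45 mitotic genes for DOX against DMSO, P30 against P3 and P33 against P3, ordered down the page from the largest fall with DOX. The DOX values span -4.47 to -0.48 and the P33 values -2.01 to -0.21. At the bottom, KIF22, ECT2, INCENP, CKAP2 and CDC25B show DOX values between -0.80 and -0.48.

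Other lists of cell cycle genes were counted beside the share of all genes tested: 29.6% were lower at P30 against P3, 23.6% higher at P33 against P30, and 20.6% lower and 16.7% higher with DOX. SPAG5, ANAPC10 and LIN37 stayed under 0.5 CPM in every passage library and, like PRC1, passed the count filter through the drug part, so all 3 are left out of these lists, a choice made after their values were seen. Of 18 kinetochore and spindle checkpoint genes, which attach chromosomes and delay anaphase, all 18 were lower at P30 against P3 (median -1.73), 17 were higher at P33 against P30 (median 0.69) and all 18 were lower with DOX (median -2.77), beside medians of -1.71, 0.53 and -2.61 for the 45. SPC25, a kinetochore subunit, showed the largest fall with DOX, -4.65 ± 0.32 (SE, adjusted p = 7.75e-14). Of 19 genes of replication licensing and S phase, 18 were lower at P30 against P3 (median -1.22), 13 were higher at P33 against P30 (median 0.31) and 16 were lower with DOX (median -1.22). RRM2, a subunit of ribonucleotide reductase, and MCM10, a replication fork factor, fell most with DOX, at -3.82 ± 0.11 and -3.20 ± 0.22 (SE), while PCNA, the sliding clamp, which overlaps a same-strand gene, and TYMS, thymidylate synthase, were higher, by 0.95 ± 0.05 (SE, adjusted p = 5.31e-16) and 0.86 ± 0.06 (SE, adjusted p = 4e-13). Of 16 other regulators of mitotic entry and exit, 9 were lower at P30 against P3 (median -0.38), 7 were higher and 3 lower at P33 against P30 (median 0.04), and 10 were lower and 2 higher with DOX (median -0.36). PKMYT1, an inhibitory kinase of CDK1, led the falls with -3.09 ± 0.32 (SE, adjusted p = 1.36e-09), followed by CCNF, cyclin F, with -1.11 ± 0.15 (SE). ARPP19 and PPP2R2A, an inhibitor and a subunit of the phosphatase PP2A that opposes CDK1, rose by 0.26 ± 0.05 and 0.26 ± 0.05 (SE). CDC14A, a phosphatase whose budding yeast counterpart opposes CDK1, was higher at P30 against P3, by 2.11 ± 0.11 (SE, adjusted p = 2.17e-17), and lower at P33 against P30, at -1.98 ± 0.11 (SE, adjusted p = 2.46e-16). CDC14A and CCNF overlap a same-strand gene, and their levels are uncertain to that extent. No list was tested against the others.

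Of 23 other cytokinesis and abscission genes, 15 were lower at P11 against P3, 18 at P24, 15 at P30 and 22 at P33 against P3. Of all genes tested, 23.6%, 27.8%, 29.6% and 33.3% were lower in these comparisons. The medians of the 23 were -0.24, -0.40, -0.34 and -0.61. With DOX 13 were lower (56.5%, against 20.6% of all genes tested) and 1 was higher, with a median of -0.15. The largest falls were in CEP55, which recruits the abscission machinery, -3.27 ± 0.14 (SE, adjusted p = 1.41e-18), and CIT, citron kinase, which overlaps a same-strand gene, -1.43 ± 0.08 (SE, adjusted p = 2.25e-15), while SEPTIN11, a septin, rose by 0.62 ± 0.05 (SE, adjusted p = 2.97e-11). At P33 against P30, 16 of the 23 were lower (69.6%, against 24.8% of all genes tested) and 3 higher, with a median of -0.29, ACTB and MYL12A falling most at -1.38 ± 0.07 and -0.95 ± 0.07 (SE), and CIT and CEP55 were higher by 0.65 ± 0.08 and 0.62 ± 0.10 (SE), as the mitotic genes were.

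Among 10358 other genes with a mean of at least 5 CPM, those most like the average course of the 45 over the 15 passage libraries were BUB1B and CDCA3 (Pearson r of 0.994 each), NCAPG2 (0.993), CENPF and MAD2L1 (0.992 each). BUB1B, a checkpoint kinase that overlaps a same-strand gene, gave a log2 fold change of -2.98 with DOX, CDCA3 -1.87, NCAPG2 -1.32, CENPF -3.06 and MAD2L1 -1.53. Within the group, CDC25B (0.65), KIF18A (0.766) and CKAP2L (0.828) were least like that average, to which each of them also belongs.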

How the data were processed

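Per the labels' protocols, poly(A)-selected RNA of 21 libraries was sequenced; the labels' molecule and library source fields name genomic DNA instead, and the libraries were treated as RNA. The authors deposited a table of whole-number read counts per gene, not normalized. Per the submitters' processing notes, reads went through cutadapt 3.3 and FastQC 0.11.9, HISAT2 2.1.0, SAMtools 1.11 and featureCounts 2.0.1 of Subread, with DESeq2 1.34.0 also listed, on hg38 (GRCh38.p13). The order and options of these tools were not stated. The deposited gene length is the whole span, introns included, so levels were not compared between genes. Counts were analysed in R 4.3.3 with edgeR 4.0.16 and limma 3.58.1. filterByExpr with a minimum count of 10 kept 16821 of 61544 genes. One quasi-likelihood model with 7 group means was fitted to all 21 libraries after TMM scaling (factors 0.899 to 1.13), which left 14 residual degrees of freedom. The biological coefficient of variation was 5.48%. All tests were two-sided, with Benjamini-Hochberg adjusted p-values over all 16821 genes. There were 10 comparisons. Libraries of a group differed by more than sampling noise in every case, and none was a copy of another.

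The members, lists and tests were chosen with earlier results of these data known. Named genes were a panel of 29 members chosen by role, the 3 largest and 3 smallest changes of each comparison, members that failed or went against the rest where these were 10 or fewer, the 2 largest rises and falls of each related list, and the 5 most similar other genes. The fit was tested on simulated counts of 16821 genes with 200 changed. For P33 against P3 it found 69% of changes of 1.5-fold and 89% of those of 2-fold, with 5.39% of calls false, and for DOX against DMSO the same shares were 73%, 87% and 5.88%. They were lower in recovery for the DOX minus P33 effect, at 54%, 73% and 1.55%, so members not called there may still differ. The 200 changed genes were drawn from those with at least 200 counts over all libraries. In the data 11408 genes were called at P33 against P3, far more than were changed in the simulation, so these shares may not carry over. Alternatives were RLE scaling, total counts, no filter, a mean of at least 10 CPM, leaving out genes that overlap on the same strand, a replicate block, fitting the passage and drug libraries apart, leaving out each library, and DESeq2 1.42.0. Totals of 12.946 to 27.194 M counts set the precision, and the floor for a count of 0 is 3 counts per library. Such floors hold for counting error alone, as PCR copies do not count molecules. Motifs were searched in RefSeq promoters, 1 per gene at its most upstream start.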

Additional observations from a re-analysis of the deposited data

How the results depend on the processing

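Counts here are over the 46 genes tested, PRC1 included. All 10 counts of called members kept within 1.5 times of their value under each alternative with 2 exceptions, both at P24 against P11, where 24 were called: a mean of at least 10 CPM left 36 members tested and 14 called, and leaving out replicate 1 of P11 left 15. Leaving out each library in turn gave 39 to 42 calls at P11 against P3, 43 in each case at P24 against P3, 45 in each case at P30 against P3, 44 to 45 at P33 against P3, 15 to 27 at P24 against P11, 43 to 44 at P30 against P24, 37 to 39 at P33 against P30, 45 to 46 with DOX, 36 to 39 for the DOX minus P33 effect and 32 to 35 for the DOX minus P30 effect. Same-numbered replicates did not deviate together (63 pairs, median r of 0.004, from -0.077 to 0.041, and 4 of 21 libraries closest to their own number), so the numbers do not pair them. A replicate block gave 42, 43, 45, 45, 22, 44, 40, 46, 39 and 33 calls in the same order of comparisons, against 42, 43, 45, 45, 24, 44, 40, 46, 39 and 34 without it. Fitting the passage and drug libraries apart gives no value for the 2 differences of effects.

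Scaling to total counts moved the median of all genes by 0.102 at P11 against P3, 0.183 at P33 against P3, 0.137 at P33 against P30 and -0.193 for the DOX minus P33 effect. On that scale the share of lower among all called genes was 32.6% in place of 50.8% at P11 against P3, 39.7% in place of 51.1% at P24 against P3, 34.4% in place of 49.1% at P33 against P3, 61.3% in place of 48.7% at P30 against P24, 27.0% in place of 51.3% at P33 against P30 and 66.5% in place of 49.6% for the DOX minus P33 effect. Over all genes, leaving out those that overlap on the same strand called 5196 in place of 7825 at P11 against P3, 3734 in place of 5658 at P24 against P11 and 5416 in place of 8142 at P33 against P30. A mean of at least 10 CPM called 6028 in place of 9150 at P24 against P3, 6455 in place of 9856 at P30 against P3, 6843 in place of 11408 at P33 against P3 and 4932 in place of 8142 at P33 against P30. Fewer genes were tested in both.

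Of 2315 alternative values for named genes, 2221 kept direction and call, 35 lost a call, 26 gained 1 and 33 changed sign, all of these last near 0 and uncalled. At P33 against P30 the call was lost for ASPM without any P30 replicate or replicate 1 of P33, for CCNA2 without replicate 1 or 3 of P30 or 1 of P33, for CDC25B without any P30 replicate or 1 or 2 of P33, and for KIF23 without replicate 1 or 2 of P30 or 1 or 3 of P33. KIF18A (0.27), KIFC1 (0.46) and KIF22 (0.34 and 0.32) were called there without replicate 2 of P30, replicate 3 of P30, and replicate 1 of P30 or of P33. For the DOX minus P33 effect the KIF22 call was lost without replicate 2 of P3, 1 of P33, 1 or 3 of DOX, or 1 or 2 of DMSO, and ESPL1 (-0.72) and INCENP (0.24) were called without replicate 1 and replicate 2 of DOX. At P33 against P30, calls were also gained on total counts by INCENP (0.34), KIF18A (0.33), KIF22 (0.41), KIFC1 (0.49) and MYBL2 (0.35), at a mean of at least 10 CPM by INCENP (0.27), KIF18A (0.27), KIF22 (0.35) and MYBL2 (0.29), in separate fits by INCENP (0.20), KIF22 (0.27), KIFC1 (0.35) and MYBL2 (0.22), by INCENP with no filter (0.18), and by KIF22 with RLE scaling (0.26) and without overlapping genes (0.26), while CDC25B and KIF23 lost theirs with no filter (both 0.16). Total counts also ended the MYBL2 call at P24 against P3 (-0.18) and gave calls to ESPL1, KIF20B and RACGAP1 for the DOX minus P33 effect (-0.63, -0.27 and -0.29). At P33 against P3, CDC25B and CKAP2L lost theirs on total counts (-0.02 and -0.04) and at a mean of at least 10 CPM (-0.07 and -0.09), and CKAP2L without overlapping genes (-0.18). AURKB was called at P11 against P3 without replicate 2 of P11 (-0.31). The CKAP2L call at P33 against P3 was lost without replicate 2 of P33 (-0.11). Leaving out single libraries turned CCNA2, CCNB2 and CKAP2 at P24 against P11, with ranges of -0.065 to 0.056, -0.072 to 0.079 and -0.060 to 0.041. It turned ECT2, INCENP, KIF18A and RACGAP1 for the DOX minus P33 effect, with ranges of -0.023 to 0.085, -0.005 to 0.238, -0.103 to 0.007 and -0.266 to 0.011, and KIF11 for the DOX minus P30 effect, with a range of -0.037 to 0.087. CCNB2 at P24 against P11 turned also with RLE scaling (0.009), no filter (0.013), a mean of at least 10 CPM (0.024), separate fits (0.011) and DESeq2 (0.010). Total counts turned CCNA2 and CKAP2 at P24 against P11 (-0.024 and -0.026), CCNA2 at P11 against P3 (0.030) and at P24 against P3 (0.006), CDC25B at P24 against P3 (0.037), and ECT2 and INCENP for the DOX minus P33 effect (-0.152 and -0.088). A mean of at least 10 CPM turned CDC25B at P24 against P3 (0.025) and ECT2 and INCENP (-0.082 and -0.017), and leaving out genes that overlap on the same strand turned ECT2 (-0.016) and KIF11 (-0.006). The cause was not tested. The lowest counts, in the DOX libraries, limit the largest falls.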

Other observations

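Of 18 kinesins of interphase transport, which carry cargo along microtubules, 4 were lower with DOX (22.2%, close to the 20.6% of all genes tested) and 6 higher, where 16.7% of all were, with a median of 0.01. KIF5C, a cargo kinesin of neurons, rose by 2.22 ± 0.37 (SE, adjusted p = 1.07e-05) and KIF21A by 0.55 ± 0.14 (SE, adjusted p = 0.00141), while KIFAP3, which overlaps a same-strand gene, and KIF3C, both of the kinesin-2 motor, fell, at -0.67 ± 0.06 and -0.49 ± 0.07 (SE). The level of KIF5C was low, with means of 0.398 CPM at P3, 0.265 at P11 and 0.525 at P24. No library of these 3 groups exceeded 0.684 CPM, and KIF5C passed the count filter only through other groups. Its values rest on few reads, and its calls are given as description only. At P30 against P3, 7 of the 18 were lower and 5 higher, where 29.6% and 29.0% of all genes tested were, with KIF5C again highest at 2.23 ± 0.32 (SE, adjusted p = 3.95e-07). Of 14 core subunits and partners of the anaphase-promoting complex, 9 were lower and 1 higher at P30 against P3, where 29.6% and 29.0% of all genes tested were. With DOX 1 was lower and 3 were higher, where 20.6% and 16.7% of all were. The lower one was UBE2S, which extends ubiquitin chains on its targets, at -0.50 ± 0.12 (SE, adjusted p = 0.000739), and ANAPC13 and ANAPC7 were higher by 0.34 ± 0.08 and 0.27 ± 0.07 (SE), ANAPC7 with a same-strand overlap. These differences between lists were not tested.

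Of 11 regulators of the MuvB and DREAM complexes, 5 were lower (45.5%, against 20.6% of all genes tested) and 0 higher (16.7% of all) with DOX. RBL1 (p107) fell most, at -0.71 ± 0.09 (SE, adjusted p = 4.47e-08), and TFDP1 next at -0.27 ± 0.05 (SE). At P30 against P3, 3 of the 11 were lower and 4 higher, near the 29.6% and 29.0% of all genes tested. RBL1 and LIN9 were lower there, at -1.04 ± 0.08 and -0.71 ± 0.12, and TFDP2 and LIN54 higher by 0.85 ± 0.07 and 0.31 ± 0.06 (SE). RBL1, TFDP2 and LIN54 overlap a same-strand gene. Of 8 CDK inhibitor genes, 5 were lower and 2 higher with DOX, where 20.6% and 16.7% of all genes tested were. CDKN1A, p21, averaged 488 ± 21 CPM with DOX and 145 ± 4.16 CPM with DMSO (SD, n = 3 each), at 1.75 ± 0.05 (SE, adjusted p = 2.77e-23). CDKN2B, p15, rose by 0.99 ± 0.11 (SE, adjusted p = 5.49e-09). CDKN3, a phosphatase of CDK1 that is itself expressed with the mitotic genes, fell, at -2.68 ± 0.17 (SE, adjusted p = 2.21e-14), and CDKN2C, p18, fell, at -1.24 ± 0.08 (SE, adjusted p = 3.94e-14). At P30 against P3, 5 of the 8 were lower and 2 higher, where 29.6% and 29.0% of all genes tested were, with a median of -0.41. CDKN1A was higher there by 0.69 ± 0.05 (SE, adjusted p = 1.3e-13), while CDKN3 was lower, at -2.04 ± 0.10 (SE, adjusted p = 1.7e-17), and CDKN2A (p16 and ARF), named after its values were seen, averaged 6.50 ± 0.893 CPM at P30 and 16.6 ± 1.59 CPM at P3 (SD, n = 3 each), at -1.35 ± 0.13 (SE, adjusted p = 5.76e-11).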
